A study of Homo sapiens with 6 samples.

Results

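The PD-L1 locus and the core genes of antigen presentation by class I molecules were examined in 6 lists of CUT&Tag regions from MDA-MB-231, an established line of triple-negative breast cancer cells. The genes were CD274, PDCD1LG2, HLA-B, HLA-C, HLA-E, B2M, TAP1 and TAP2, 8 of the 19970 genes for proteins that lie on the autosomes or X. Every deposited region that touched the span of a gene extended by 5 kb on both sides was taken, which gave 92 of 998906 regions. The gene windows together covered 200.6 kb. In CUT&Tag, an antibody brings the transposase Tn5 to a chromatin protein or histone mark, and the DNA cut out beside it is sequenced. NONO, a nuclear protein that binds RNA and DNA, was mapped in NC cells, labelled WT and described in the methods as a negative control, and in NONO knockdown cells (NONO-KD). H3T11ph, histone H3 phosphorylated on a threonine and attributed to the kinase PKM2, and H3K27ac, an acetylated lysine of the same histone, were mapped in NC cells and in PKM2 knockdown cells (PKM2-KD). The labels and methods do not say whether siRNA or shRNA was used for these libraries, or whether a line was 1 clone. Each group was 1 library, so no difference between libraries could be tested, and the lists hold no RNA level with which to check a knockdown.

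CD274 encodes PD-L1 and PDCD1LG2 encodes PD-L2, the ligands through which tumor cells engage the receptor PD-1 and restrain T cells. Class I molecules show peptides from inside the cell to T cells and natural killer cells. HLA-B and HLA-C are classical heavy chains, HLA-E is a non-classical heavy chain seen by receptors of natural killer cells, and B2M, β2-microglobulin, is the light chain that all of them share. TAP1 and TAP2 form the transporter that moves peptides into the endoplasmic reticulum for loading. Interferon-γ induces genes of both groups, in part through the factor IRF1, and H3K27ac is usual at the promoters and enhancers of active genes.

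The lists were not all of 1 form, which bears on each comparison below. The share of regions no wider than the narrowest of their list was 94.6% for NONO NC and 79.3% for H3K27ac NC, against 1.19% to 2.05% in the remaining 4. NC and knockdown were thus called differently for NONO and for H3K27ac, and calling and knockdown cannot be told apart there. Only the H3T11ph lists shared a form. Depth was recovered from the fold and p of each region, and it was alike within the histone mark pairs. It was 3.35 (NC) and 3.42 (PKM2-KD) fragments per kb for H3T11ph and 7.46 and 7.48 for H3K27ac, against 3.34 and 2.84 for NONO (NC and NONO-KD). The folds and q values of H3K27ac NC rest on pileups that had been multiplied by 0.521, so at the same height they are lower than in PKM2-KD, and heights rather than folds are set side by side for this mark. The H3K27ac labels were checked on genes usual in this mesenchymal-like line. VIM, CAV1, EGFR, AXL and CD44 had 932 to 2001 bp (NC) and 1283 to 2001 bp (PKM2-KD) covered within 1 kb of the start, and the luminal genes ESR1, GATA3, FOXA1, ERBB3 and CDH1 had 0 to 568 bp and 0 to 1213 bp, with a region there at 4 and 3 of the 5.

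Across the lists, H3K27ac lay at every one of these genes, and NONO and H3T11ph were sparse. H3K27ac had 46 regions at them in NC and 32 in PKM2-KD, NONO had 6 in NC and 2 in NONO-KD, and H3T11ph had 4 in NC and 2 in PKM2-KD. At least 1 H3K27ac region was found at 8 of 8 genes in NC and in PKM2-KD, as at 97.4% and 89.6% of all genes. A NONO region was found at 4 of 8 genes in NC and 2 of 8 in NONO-KD, against 77.1% and 51.5% of all genes. An H3T11ph region was found at 3 of 8 in NC and 2 of 8 in PKM2-KD, against 56.6% and 53.2%. The windows of these genes were short, with a median of 17.6 kb against 34.2 kb for all genes, so densities were compared as well. Per 100 kb, the windows held 2.99 NONO regions in NC and 0.997 in NONO-KD, where all gene windows held 3.88 and 1.61. For H3T11ph the densities were 1.99 and 0.997 per 100 kb (NC and PKM2-KD), where all gene windows held 1.68 and 1.52. For H3K27ac they were 22.9 and 16.0, where all gene windows held 22.8 and 9.71. H3K27ac regions covered 5.01% of the windows in NC and 5.76% in PKM2-KD, against 3.88% and 3.18% of all gene windows. NONO and H3T11ph thus stood at these genes at densities of the same order as elsewhere, and H3K27ac covered a larger share of their windows than of all gene windows in both libraries. The values for all gene windows are pooled by length, so long genes weigh most in them. Genes of like length were not compared, and the part of window length in the larger share was not tested. PDCD1LG2 alone supplied 3568 of the 10050 bp covered in NC and 3127 of the 11564 bp in PKM2-KD.

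**Figure D1:**
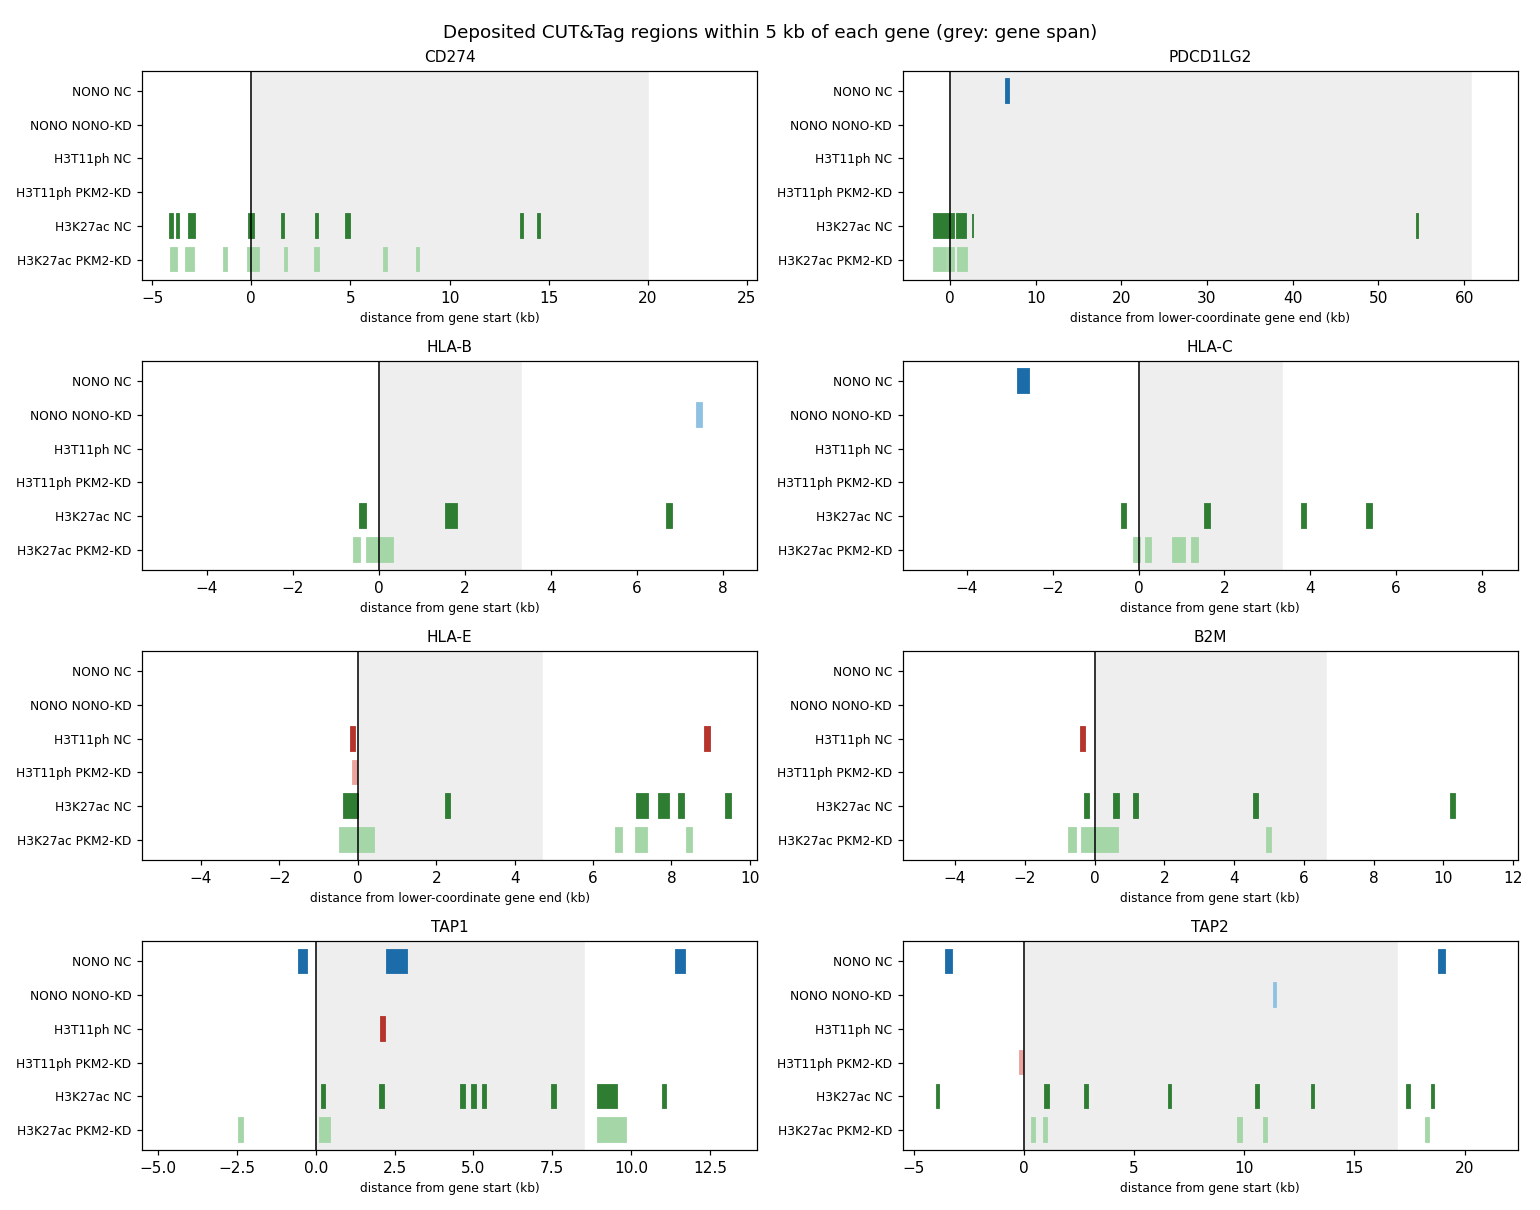
Regions of the 6 lists at each of the 8 genes, by distance in kb from the gene start (for PDCD1LG2 and HLA-E, from the end with the lower coordinate), with 1 row per library and the gene span in grey. H3K27ac regions (green) stand within 1 kb of the start of every gene in both libraries, while NONO (blue) and H3T11ph (red) have at most 3 regions at a gene in any library, and none at CD274.

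At the gene starts, H3K27ac was found within 1 kb of the start of 8 of 8 genes in NC and 8 of 8 in PKM2-KD, against 68.4% and 59.4% of all genes. With only regions of a −log10 q of at least 5, 4 of 8 had one in NC (PDCD1LG2, HLA-E, B2M and TAP2) and 7 of 8 in PKM2-KD, a filter that the scaling of NC makes stricter there. A NONO region lay within 1 kb of a start at TAP1 alone in NC (21.7% of all genes) and at 0 of 8 genes in NONO-KD (7.42%). An H3T11ph region did so at B2M and HLA-E in NC, 2 of 8 against 14.9% of all genes, and at HLA-E and TAP2 in PKM2-KD, 2 of 8 against 14.7%. HLA-E was the only gene of the 8 with H3T11ph at its start in both libraries. With 8 genes, the NONO and H3T11ph counts at starts are too small to be set apart from the shares of all genes.

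**Figure D2:**
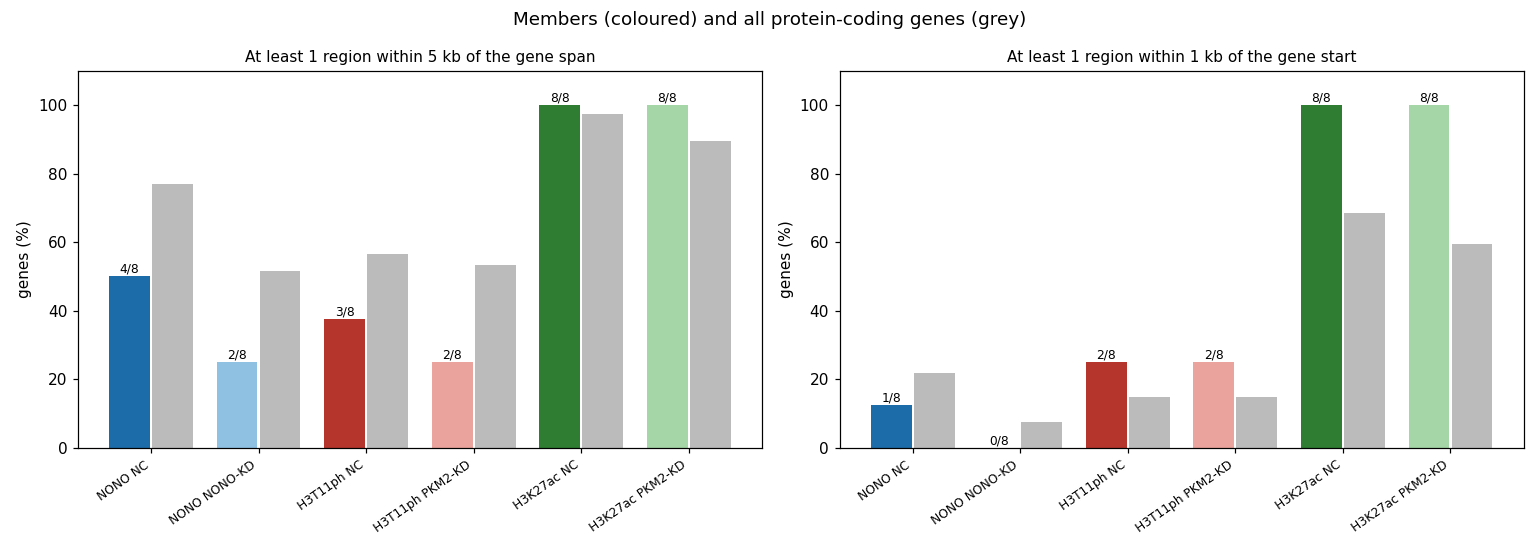
Percent of the 8 genes (coloured, with the count above each bar) and of all 19970 protein-coding genes (grey) with at least 1 region within 5 kb of the gene span (left) and within 1 kb of the gene start (right), for each library. The coloured bars exceed the grey bars for H3K27ac and, at the start, for H3T11ph, and fall below them for NONO.

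CD274 (chr9:5450542-5470554, plus strand; all coordinates are hg38) carried H3K27ac and neither of the other targets. Its window held 9 H3K27ac regions in NC, covering 1444 bp, and 8 in PKM2-KD, covering 2006 bp. No NONO or H3T11ph region was listed there in any of the 4 libraries. Genes with H3K27ac in both libraries and no NONO or H3T11ph region in any made up 5.11% of all genes, and CD274 was the only one among the 8. The region at the CD274 start was 258 bp wide in NC, from 116 bp before to 141 bp after the start, and 584 bp wide in PKM2-KD, from 179 bp before to 404 bp after it. Its summit held 12 fragments in NC (95% Poisson interval 6.20 to 21.0) and 23 in PKM2-KD (14.6 to 34.5), a ratio of 1.92 with an exact conditional interval of 0.915 to 4.23. The interval includes no change. Of 9730 genes with H3K27ac at the start in both libraries, 86.9% had a ratio at or below that of CD274, and the median ratio was 1.13 (quartiles 0.800 and 1.57). Those ratios did not require the regions of the libraries to overlap.

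Upstream of CD274, 2 of 3 H3K27ac regions of NC were overlapped by a region of PKM2-KD. A region lay 2856 to 3160 bp before the start in NC, with 24 fragments at its summit, and 2897 to 3284 bp before it in PKM2-KD, with 11. A weaker region lay 3968 to 4079 bp before the start in NC (7 fragments) and 3748 to 4035 bp before it in PKM2-KD (8 fragments). The third region of NC, 3623 to 3734 bp before the start with 10 fragments, had no counterpart. Inside the gene, the region 3237 to 3348 bp after the start in NC (10 fragments) was overlapped by one 3189 to 3423 bp after it in PKM2-KD (16 fragments). The other intragenic regions did not overlap between the libraries. They included the highest of the gene body in PKM2-KD, 1685 to 1816 bp after the start with 21 fragments, and 2 regions of 11 and 10 fragments 13615 to 14566 bp after the start in NC. No exon annotation was used here, so positions inside genes are given as distances.

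The CD274 promoter is shown because its interferon-type letters and its H3K27ac lie apart. The window printed is chr9:5450292-5450591 on the plus strand (RefSeq, GRCh38.p14), from 250 bases before the start to 50 after it, and the capitals mark the letters of an interferon-stimulated response element, TTTC and again TTTC after any 2 bases, on either strand.
CD274: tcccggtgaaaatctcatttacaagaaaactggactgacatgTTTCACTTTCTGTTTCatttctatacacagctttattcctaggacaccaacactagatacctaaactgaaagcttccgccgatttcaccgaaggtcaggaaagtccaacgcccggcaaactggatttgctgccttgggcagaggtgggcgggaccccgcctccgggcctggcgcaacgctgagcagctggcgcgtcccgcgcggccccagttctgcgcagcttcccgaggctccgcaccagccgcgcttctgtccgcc
There are 2 overlapping matches, 193 to 208 bp before the start. The H3K27ac region began 116 bp before the start in NC and 179 bp before it in PKM2-KD, so these letters lay outside both regions. The letters TTCNNNGAA of a gamma-activated site occurred 117 to 125 bp before the start, inside the PKM2-KD region and directly before the NC region. Such letters were found on either strand in 7.66% of 35116 promoter windows.

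PDCD1LG2 (chr9:5510531-5571282) had the broadest H3K27ac of the 8 genes. No strand was given for it, so its distances are from the end with the lower coordinate, where the gene is known to begin. In NC a region of 2326 bp ran from 1908 bp before that end to 417 bp after it, followed by one of 1018 bp 841 to 1858 bp after it. In PKM2-KD the same ground held 3 regions of 1451, 639 and 1037 bp. Within 1 kb of the end, 1578 bp were covered in NC and 1315 bp in PKM2-KD, levels that 1.35% and 9.83% of 15812 genes with a known strand reached. The tallest summit there held 58 fragments in NC (44.0 to 75.0) and 64 in PKM2-KD (49.3 to 81.7), a ratio of 1.10 (0.761 to 1.60). The transcript INCR1 overlaps this stretch in the annotation, and the libraries do not say which of the genes the mark belongs to.

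The gene body of PDCD1LG2 held 1 of the 6 NONO regions in NC. It lay at chr9:5517127-5517395, 6596 to 6864 bp after the lower-coordinate end, with a fold of 21.3 and 112 fragments at the summit (92.2 to 134.8), the tallest NONO summit at the 8 genes. No H3K27ac region lay nearer than 3850 bp in NC, and no NONO region was listed at PDCD1LG2 in NONO-KD. Between the windows of CD274 and PDCD1LG2 lay 30.0 kb, where NONO and H3T11ph had 0 regions in each of the 4 libraries. H3K27ac had 7 regions there in NC, covering 895 bp, and 5 in PKM2-KD, covering 1606 bp. Along the stretch from CD274 to PDCD1LG2, the NONO region within PDCD1LG2 was thus the only one of NONO or H3T11ph, and its local background of 4.30 fragments was above the 0.898 fragments that was commonest in that list.

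HLA-B (chr6:31353875-31357179) and HLA-C (chr6:31268749-31272092), both on the minus strand, had H3K27ac summits of 11 to 14 fragments near the start. The median height was 10 fragments in each H3K27ac list. HLA-B had 3 H3K27ac regions in NC and 2 in PKM2-KD, and HLA-C had 4 and 4. The tallest summit within 1 kb of the start of HLA-B held 12 fragments in NC and 14 in PKM2-KD (ratio 1.17, 0.501 to 2.76). For HLA-C it held 11 and 14 (ratio 1.27, 0.537 to 3.10), and neither interval excludes 1. In NC the start region lay upstream, 288 to 424 bp before the start of HLA-B and 284 to 395 bp before that of HLA-C, and in PKM2-KD it reached over the start in both genes. The regions inside the genes also fell at like distances in NC, 1557 to 1816 bp after the start of HLA-B and 1548 to 1659 bp after that of HLA-C. Their summits held 24 fragments at HLA-B and 11 at HLA-C. Class I genes are near-identical in long stretches, and how reads that fit several of them were placed is not given in the sources used here, so counts at HLA-B and HLA-C are uncertain.

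The promoters of HLA-B (chr6:31357130-31357429) and HLA-C (chr6:31272043-31272342), minus strand, RefSeq GRCh38.p14, are shown to let this likeness be seen. The capitals mark CCAAT or its reverse complement ATTGG, the letters of a CCAAT box.
HLA-B: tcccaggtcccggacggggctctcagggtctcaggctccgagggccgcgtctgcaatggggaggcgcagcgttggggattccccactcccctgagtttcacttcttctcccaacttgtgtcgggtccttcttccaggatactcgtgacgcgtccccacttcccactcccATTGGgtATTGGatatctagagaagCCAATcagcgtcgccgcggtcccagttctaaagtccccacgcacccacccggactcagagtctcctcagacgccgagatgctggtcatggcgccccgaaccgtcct
HLA-C: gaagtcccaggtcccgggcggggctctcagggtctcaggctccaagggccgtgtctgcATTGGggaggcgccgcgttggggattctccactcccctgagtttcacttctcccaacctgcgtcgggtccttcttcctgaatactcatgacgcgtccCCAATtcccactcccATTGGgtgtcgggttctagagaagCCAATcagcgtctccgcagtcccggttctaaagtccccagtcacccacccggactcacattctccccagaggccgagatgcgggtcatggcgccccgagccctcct
The windows aligned with 88.5% identity (269 of 304 columns), with a longest identical run of 25 bases, against 44.7% to 49.7% for every other pair of the 6 genes with a promoter entry. HLA-B held 3 and HLA-C 4 such boxes, and 34.6% of all promoter windows held at least 1. In PKM2-KD the H3K27ac region spanned the whole HLA-B window and ran from 109 bp before to 28 bp after the start of HLA-C, which takes in the boxes between 52 and 95 bp before the start.

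NONO was found near these classical genes once in each library, at different genes and away from the start. In NC a weak region, with 6 fragments at the summit and a fold of 3.69, lay 2556 to 2824 bp before HLA-C (chr6:31274648-31274916). In NONO-KD a region with 89 fragments (71.5 to 109.5) and a fold of 70.4, the highest fold of the 92 regions, lay beyond the far end of HLA-B at chr6:31349647-31349772, 7407 to 7532 bp after its start. It was 585 bp from the nearest H3K27ac region of NC. The library with this region is the one in which NONO was knocked down, and no NONO region was listed at HLA-B in NC. H3T11ph had no region at HLA-B or HLA-C in either library.

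HLA-E (chr6:30489509-30494194), measured from the end with the lower coordinate because no strand was given, was the gene where H3T11ph and H3K27ac met in both conditions. H3T11ph in NC had 39 fragments (27.7 to 53.3) and a fold of 27 at chr6:30489325-30489439, 70 to 184 bp before that end. In PKM2-KD it had 19 fragments (11.4 to 29.7) and a fold of 14.3 at chr6:30489373-30489478, and 67 bp were shared. Both regions lay whole inside the H3K27ac regions of NC and PKM2-KD. The ratio of the H3T11ph summits, PKM2-KD over NC, was 0.487 with an interval of 0.266 to 0.864. It was the only one of the 9 ratios formed at the 8 genes whose interval excluded 1. Over 939 genes with H3T11ph at the start in both libraries the median ratio was 1.05 (quartiles 0.615 and 1.79), and 17.0% were at or below HLA-E. Ratios this low were therefore not rare by that measure, and the interval covers counting error in 1 library each. The ratios of the other genes take the tallest region within 1 kb of the start in each library, without requiring overlap. They do not show how often a shared region is this much lower. The H3K27ac summit there held 43 fragments in NC and 31 in PKM2-KD (ratio 0.721, 0.439 to 1.17).

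Behind HLA-E, a second H3T11ph region of NC lay at chr6:30498353-30498489, 8844 to 8980 bp from the lower-coordinate end, with 30 fragments and a fold of 22.6. It had no counterpart in PKM2-KD and stood 399 bp and 311 bp from the nearest H3K27ac regions of NC and PKM2-KD. H3K27ac also formed a downstream group, with 4 regions between 7124 and 9512 bp in NC and 3 between 6576 and 8532 bp in PKM2-KD. HLA-E had no NONO region in either library.

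B2M (chr15:44711517-44718145, plus strand) had the tallest H3K27ac of the genes for class I chains. In NC a region with 36 fragments lay 174 to 285 bp before the start and one with 51 fragments lay 553 to 709 bp after it. In PKM2-KD 1 region of 1026 bp, with 58 fragments (44.0 to 75.0), ran from 363 bp before to 662 bp after the start. The ratio of the tallest summits was 1.14 (0.767 to 1.69), but they lay on opposite sides of the start, so it does not compare 1 site. H3T11ph had 1 region in NC, at chr15:44711116-44711234, 283 to 401 bp before the start, with 27 fragments (17.8 to 39.3) and a fold of 6.81, and none was listed in PKM2-KD. It shared 3 bp with the H3K27ac region of NC and 81 bp with that of PKM2-KD, and it lay in PATL2, the neighbour that overlaps this upstream ground in the annotation. The local background there was high in 3 libraries, at 3.11 fragments for H3T11ph NC, 7.10 for H3K27ac NC and 11.5 for H3K27ac PKM2-KD, against commonest values of 0.372, 0.836 and 0.845. A high background lowers the fold and raises the height a region needs, and its part in these values was not tested.

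The B2M promoter (chr15:44711267-44711566, plus strand, RefSeq GRCh38.p14) is shown because the interferon-type letters fall in the gap between the NC regions. They are in capitals and are read on the other strand, as GAAA and GAAA with 2 bases between.
B2M: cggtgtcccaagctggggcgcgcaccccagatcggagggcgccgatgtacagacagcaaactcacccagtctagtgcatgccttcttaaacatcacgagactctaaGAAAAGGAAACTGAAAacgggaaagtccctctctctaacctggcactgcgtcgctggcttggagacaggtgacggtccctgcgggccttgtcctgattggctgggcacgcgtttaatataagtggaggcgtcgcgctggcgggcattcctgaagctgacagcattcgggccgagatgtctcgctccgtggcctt
The 2 overlapping matches lay 129 to 144 bp before the start. The NC region ended 174 bp before the start, while the PKM2-KD region spanned the whole window.

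TAP1 (chr6:32845209-32853704) and TAP2 (chr6:32821831-32838739), neighbours on the minus strand, carried most of the NONO regions. In NC, 4 of the 6 lay at these genes. The region nearest to a start, at chr6:32853973-32854241, was 269 to 537 bp before TAP1. It spanned the start of PSMB9, the immunoproteasome gene that reads the other way, and so lay mostly between 2 gene starts and partly within PSMB9. This region held 109 fragments (89.5 to 131.5), but its local background was 29.3 fragments, so its fold was 3.63. A region of 649 bp, the only NONO region at the 8 genes that was not of the narrowest width in NC, lay 2255 to 2903 bp after the TAP1 start with 26 fragments and a fold of 10.4. One with 44 fragments and a fold of 10.6 lay in PSMB8 at chr6:32842009-32842277, within 5 kb of both TAP genes. The last, with 32 fragments and a fold of 17.4, lay past the far end of TAP2, 18856 to 19124 bp after its start. In NONO-KD the TAP windows held 1 region, which overlapped none of these, with 39 fragments and a fold of 31.3, 11342 to 11452 bp after the TAP2 start at chr6:32827287-32827397.

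H3T11ph was found at 1 of the TAP genes in each library. In NC it lay inside TAP1, 2075 to 2197 bp after the start, with 12 fragments (6.20 to 21.0) and a fold of 7.83. It stood 57 bp from the broad NONO region of NC and shared 82 bp with an H3K27ac region of NC, the closest approach of all 3 targets at the 8 genes. In PKM2-KD it lay 30 to 197 bp before the TAP2 start, with 59 fragments (44.9 to 76.1) on a local background of 16.7 fragments and a fold of 3.39. H3K27ac at the start of TAP1 held 13 fragments in NC and 11 in PKM2-KD (ratio 0.846, 0.343 to 2.05). At TAP2 the tallest regions that reached into the 1 kb after the start held 20 and 12 (ratio 0.600, 0.267 to 1.29), and both intervals include 1. The TAP2 region of NC lay at the edge of that kb, 950 to 1113 bp after the start with 51 bp inside, and the one of PKM2-KD 887 to 1061 bp after it. Nearest to the TAP2 start was a PKM2-KD region 385 to 521 bp after it, with 6 fragments. The TAP1 window had 8 H3K27ac regions in NC and 3 in PKM2-KD, with 1397 bp and 1370 bp covered, and the TAP2 window 8 and 5, with 948 bp and 822 bp. The tallest of these in both libraries stood at the PSMB8 end of TAP1, with 31 fragments in NC and 39 in PKM2-KD.

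The promoters of TAP1 (chr6:32853655-32853954) and TAP2 (chr6:32838690-32838989), minus strand, RefSeq GRCh38.p14, are shown for the position of their interferon-type letters, in capitals.
TAP1: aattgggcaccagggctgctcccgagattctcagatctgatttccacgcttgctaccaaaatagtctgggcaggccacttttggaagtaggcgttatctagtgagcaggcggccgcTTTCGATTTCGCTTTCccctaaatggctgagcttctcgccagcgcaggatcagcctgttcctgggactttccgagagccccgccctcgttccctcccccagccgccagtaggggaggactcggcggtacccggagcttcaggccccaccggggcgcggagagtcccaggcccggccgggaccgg
TAP2: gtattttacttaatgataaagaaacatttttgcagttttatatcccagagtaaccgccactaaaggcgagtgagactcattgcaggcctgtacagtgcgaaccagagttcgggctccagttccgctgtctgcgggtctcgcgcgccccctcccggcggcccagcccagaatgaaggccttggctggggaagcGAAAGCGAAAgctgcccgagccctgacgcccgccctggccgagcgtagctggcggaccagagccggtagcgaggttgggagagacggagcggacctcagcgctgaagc
In TAP1, 2 overlapping matches lay 119 to 134 bp before the start, in no region of any library, as H3K27ac began 189 bp (NC) and 138 bp (PKM2-KD) after the start. In TAP2, 1 match lay 49 to 58 bp before the start, inside the H3T11ph region of PKM2-KD. Of the 6 genes with a promoter entry, CD274, B2M, TAP1 and TAP2 held the response element letters in this exact form. The form was found in 3.57% of 35116 promoter windows and 5 of 20 promoters of the other pathway genes. Variant forms of the element were not searched, so HLA-B and HLA-C, which had no match, may still hold one. AP-1 letters (TGANTCA) were found in 0 of 6, and in 7.71% of all windows. GC boxes (GGGCGG) were found in 4 of 6, and in 45.0% of all windows. A match says that the letters are present, not that a factor was bound.

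After knockdown, counts of regions and covered bases did not move together. NONO had fewer regions in NONO-KD at 4 of 8 genes and more at 1, where 61.8% of all genes had fewer and 12.0% more. With lists of equal length the NONO counts became 1 and 2, and among regions at least 2 times the narrowest width 1 and 0. H3T11ph had fewer in PKM2-KD at 3 of 8 (HLA-E, B2M and TAP1) and more at 1 (TAP2), where 32.4% of all genes had fewer and 27% more. H3K27ac had fewer in PKM2-KD at 7 of 8 and more at 0, where 83.7% of all genes had fewer and 9.13% more. The H3K27ac count turned with the calling: among regions with a −log10 q of at least 5, fewer was seen at 1 gene and more at 5. Among regions at least 2 times the narrowest width it was 1 and 5, and with lists of equal length 0 and 6. The counts in the full lists were near the shares of all genes.

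The bases covered by H3K27ac within 1 kb of the start showed the opposite. HLA-B went from 137 bp in NC to 757 bp in PKM2-KD, HLA-C from 112 to 455 bp and HLA-E from 361 to 881 bp. B2M went from 269 to 1236 bp, CD274 from 258 to 584 bp, TAP1 from 112 to 327 bp and TAP2 from 51 to 251 bp. Only PDCD1LG2, the broadest in NC, covered less, 1578 bp in NC and 1315 bp in PKM2-KD. Coverage was thus larger in PKM2-KD at 7 of 8 genes, where 48.7% of all genes had more (9716) and 28.5% fewer (5700). The median over the 8 genes was 197.5 bp in NC and 670.5 bp in PKM2-KD, against 121.5 bp and 208.0 bp over 15812 genes. The shares and medians over all genes take in genes without H3K27ac at the start, whereas the 8 genes had it in both libraries. They are therefore not a like comparison. The count was 6 of 8 among regions with a −log10 q of at least 5 or at least 2 times the narrowest width, and 7 of 8 with lists of equal length or a window of 2.5 kb, alternatives chosen after the data were seen. The tallest summits did not show the same: the 8 ratios ran from 0.600 to 1.92, and each interval included 1. These ratios set the tallest summit of each library side by side, not always at the same site. At B2M the tallest summit of NC (51 fragments) lay after the start. That of PKM2-KD (58 fragments) lay before it, where an NC region held 36. At HLA-B and HLA-C the regions compared did not overlap. Whether heights at the same sites followed coverage was not tested. Since H3K27ac NC consists mostly of regions of the narrowest width, the wider coverage in PKM2-KD cannot be told apart from the way the lists were called.

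**Figure D3:**
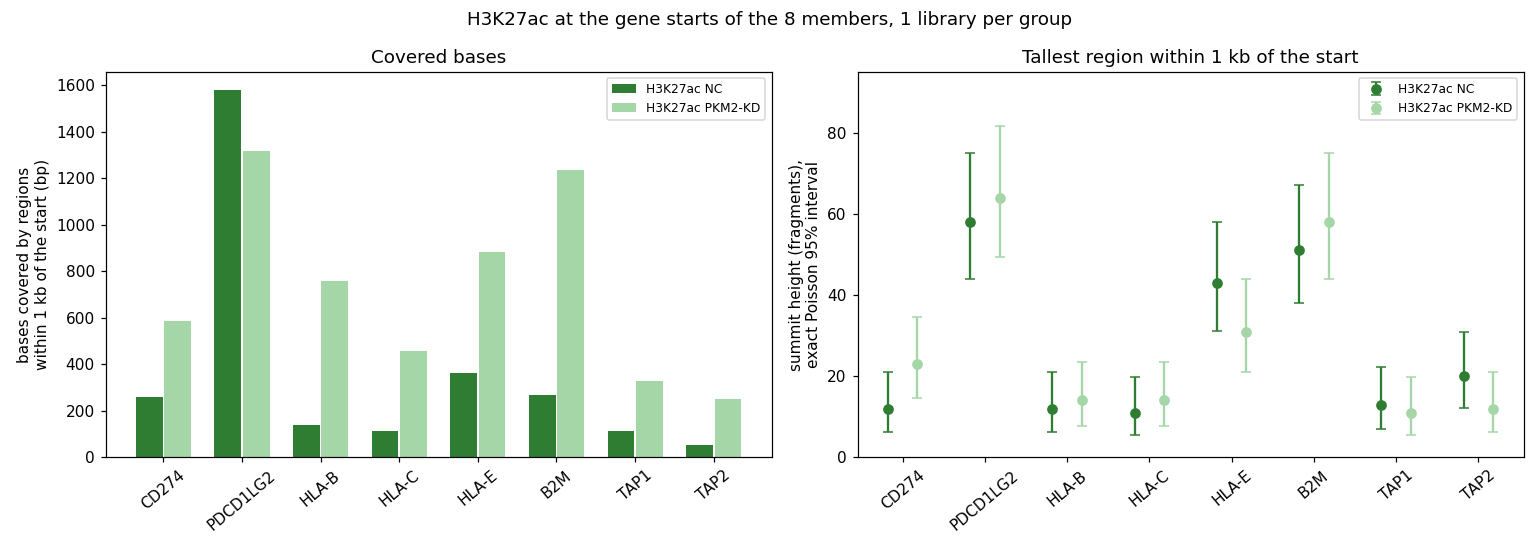
H3K27ac at the 8 gene starts in NC (dark) and PKM2-KD (light), 1 library each: bases covered within 1 kb of the start in bp (left) and fragments at the tallest summit with exact Poisson 95% intervals for counting error (right). Covered bases are higher in PKM2-KD at 7 of 8 genes, while the heights of NC and PKM2-KD have overlapping intervals at all 8.

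The share of NC regions found again after knockdown depended on which regions were counted. Of the H3K27ac regions of NC at the 8 genes, 13 of 46 (28.3%, exact binomial 95% interval 16.0 to 43.5) were overlapped by a PKM2-KD region, against 13.3% of the whole list. The share was 77.8% among regions at least 2 times the narrowest width and 66.7% among those with a −log10 q of at least 5. In the other direction the share was 13 of 32 (40.6%, 23.7 to 59.4), against 33.2%. Of 4 H3T11ph regions of NC, 1 was found again (25.0%, 0.631 to 80.6, against 5.75% of the list), the one at HLA-E. Of 6 NONO regions of NC, 0 were found again (interval to 45.9%, against 2.01%), an interval that leaves room for the share of the list. Within NC, 0 of 6 NONO regions overlapped H3K27ac (to 45.9%, against 16.8%) and 3 of 4 H3T11ph regions did (75.0%, 19.4 to 99.4, against 19.7%), at HLA-E, B2M and TAP1. With an overlap of at least 50% of the H3T11ph region, 2 of the 4 did. No NONO region of NC overlapped an H3T11ph region of NC at these genes.

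Folds near gene starts depended on the local background that the peak caller used. A background over 2 times the commonest of the list stood under 13 of the 30 regions within 1 kb of the start of their own gene among the 8. It stood under 6 of the 62 others. These others include regions at starts of further genes, such as those of H3K27ac at the PSMB8 start, with backgrounds of 7.68 (NC) and 4.78 (PKM2-KD). The highest were those at TAP1 (29.3 fragments, NONO NC), TAP2 (16.7, H3T11ph PKM2-KD) and B2M (11.5, H3K27ac PKM2-KD). The folds of these 3 regions, 3.63, 3.39 and 4.73, were low for their heights of 109, 59 and 58 fragments. By contrast, the NONO-KD regions at HLA-B and TAP2 stood on 0.278 fragments and had folds of 70.4 and 31.3.

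**Figure D4:**
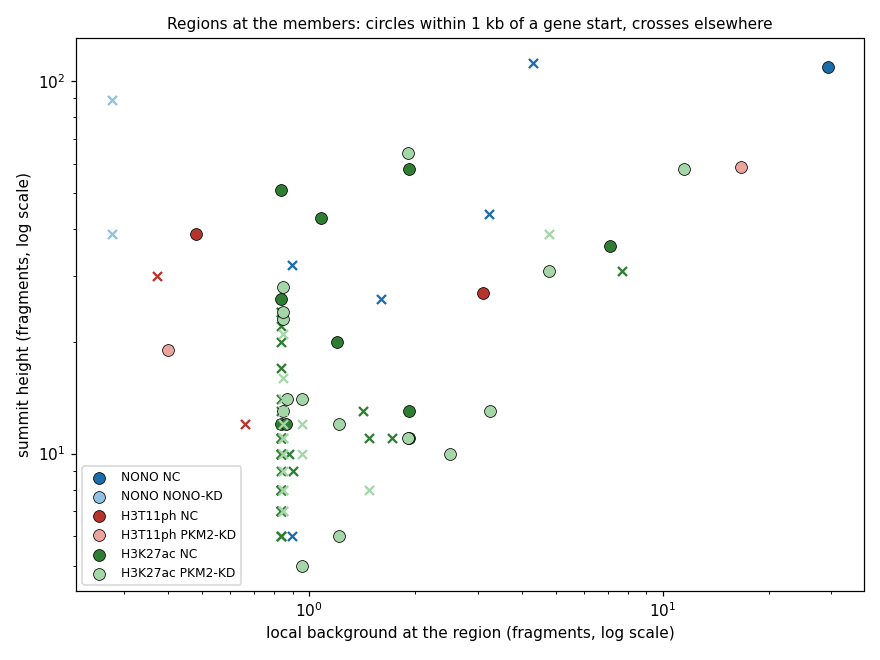
Summit height in fragments against the local background in fragments (both axes log scale) for the regions at the 8 genes, coloured by library. Circles lie within 1 kb of the start of their own gene among the 8, and crosses lie elsewhere, also at starts of other genes. The 3 regions farthest to the right, with backgrounds of 11.5 to 29.3 fragments, all lie near a start and reach 58 to 109 fragments.

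Beside the 8 genes, 35 others were counted in the same way, 29 of the pathway and 6 that were listed for their position near CD274 (PLGRKT, RIC1, ERMP1, RLN1, RLN2 and INSL6), a list chosen with earlier results known. Of the 29 pathway genes, 25 (86.2%) had a NONO region in NC and 12 (41.4%) in NONO-KD, against 77.1% and 51.5% of all genes. An H3T11ph region was found at 16 (55.2%) in NC and 15 (51.7%) in PKM2-KD, against 56.6% and 53.2%. An H3K27ac region was found at 28 (96.6%) in NC and 26 (89.7%) in PKM2-KD, against 97.4% and 89.6%. NONO had fewer regions in NONO-KD at 20 of the 29 (69.0%) and more at 2 (6.90%), where all genes had 61.8% and 12.0%. H3T11ph had fewer in PKM2-KD at 10 (34.5%) and more at 8 (27.6%), where all genes had 32.4% and 27%. H3K27ac had fewer at 20 (69.0%) and more at 4 (13.8%), where all genes had 83.7% and 9.13%. The 6 neighbours of CD274 had H3K27ac at 6 in NC and at 2 in PKM2-KD, and NONO at 2 in NC and 0 in NONO-KD.

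Named by the height of their folds, the leading genes of the list differed between libraries. The NONO regions of these genes reached higher folds than those of the 8 genes in NC. They numbered 78, counted per gene, over 35 genes, against 6 at the 8 genes. The highest of a larger set tends to be higher, so these maxima are not read as a difference between the groups. CANX, a chaperone of class I chains, reached 178.0, and the signalling kinase JAK1 reached 113.9. ERAP1 and ERAP2, neighbouring genes for enzymes that trim peptides, were both listed with 90.0. This may be 1 region counted in both windows, so it is not read as a separate value for each gene. In NONO-KD the highest folds were 81.6 at NLRC5, the transactivator of class I genes, 72.1 at its partner RFX5, 68.1 at CMTM4, which stabilizes PD-L1 protein, and 65.7 at JAK1. For H3T11ph, CMTM4 (43.7), NLRC5 (40.5), ERAP1 (34.7) and RFXANK (30.8) led in NC. CIITA (51.1), the class II transactivator, CANX (45.8), IRF1 (44.7) and the interferon-γ receptor chain IFNGR2 (40.4) led in PKM2-KD. The region at IRF1, a factor that induces class I and PD-L1 genes, lay at its start, where NC had no H3T11ph region. For H3K27ac the highest folds in NC were at ERAP1 (30.8), IRF2 (20.7), ERAP2 (18.8) and JAK2 (18.5). In PKM2-KD they were at ERAP1 (80.8), NLRC5 (51.4), IRF2 (37.8) and ERAP2 (25.0). Because NC was scaled by 0.521, these folds rank genes within a library and cannot be compared between NC and PKM2-KD.

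HLA-F and HLA-G, non-classical class I heavy chains picked out after their values were seen, had H3K27ac regions in NC and none listed in PKM2-KD. HLA-F went from 6 regions in NC to 0 in PKM2-KD, and HLA-G from 4 to 0. NONO was listed at HLA-F in NC (3 regions, highest fold 82.7) and at neither gene in NONO-KD. The limits on read placement given for HLA-B and HLA-C hold for these genes as well.

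The patterns of CD274 and B2M over the 6 lists were compared with those of other genes, as the distance between log2(percent of the window covered + 0.1) values. Among 14098 genes with a region in at least 4 of the 6 lists, AVL9 (distance 1.53), SCIN (1.84) and ARSJ (1.88) were nearest to CD274. Nearest to B2M were CLSPN (1.59), SPTLC3 (1.64) and ANKRD29 (1.78). CD274 itself had regions in 2 of the lists and B2M in 3, so neither would itself have met that condition. It removes every gene with the pattern of CD274, H3K27ac in both libraries and neither other target, so the genes named for CD274 necessarily had NONO or H3T11ph regions.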

How the data were processed

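CUT&Tag libraries of MDA-MB-231 cells were each described by 1 deposited narrowPeak list, called by the authors. The submitters' processing notes name hg38, FastQC 0.11.9, cutadapt 1.18, SAMtools 1.3.1 and MACS2 2.1.1.20160309. The aligner, duplicate handling, control and MACS2 options are not given in the sources used here. In the deposited lists the score is −log10 q times 10 without decimals, and the fold is the ratio of the summit to the local background after 1 was added to both, which limits it where the background is low. The authors' p and q values are −log10 values, with a lowest −log10 q of 1.30 to 1.32 per list.

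Gene spans came from RefSeq GRCh38.p14, and strand from its promoter table, for 15812 of 19970 protein-coding genes. A gene without strand was counted at either end. Promoter entries matched 6 of the 8 genes, all but PDCD1LG2 and HLA-E. Summit heights were recovered as the whole number of fragments that gave both the deposited fold and −log10 p (within 0.002), for at least 99.53% of 20000 rows tried per list. In H3K27ac NC the pileup was first multiplied by 0.521. Lowest heights were 4 to 6 fragments. Depth is the commonest background per kb of the narrowest width. Intervals cover counting error only. The recovery was tested on simulated data with low backgrounds only. The simulation did not cover the high backgrounds near the starts of TAP1, TAP2 and B2M or the exact factor of 0.521. Python 3.11.15, pandas 2.3.3 and scipy 1.17.1 were used.

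Each group had 1 library, taken from its title, so values were compared with all genes and no p-value was computed. The genes and lists were chosen with earlier results of these data known. Genes of the pathway were named by a rule, the 4 with the highest fold per list, and for CD274 and B2M the 3 nearest genes in covered share. Alternatives changed the q threshold, the region width, the flank, the list length, the overlap and the start window. Some genes of the pathway are counted but not reported here by name.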

Additional observations from a re-analysis of the deposited data

How the results depend on the processing

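Of 116 results recomputed under another setting, 67 stayed within the limit set (1.5 times for a count, the interval for a share) and 49 moved. Counts of regions are small, so a change of 1 region can move them. No paired analysis was possible because no group had more than 1 library and no model was fitted. Since the lists are not alike in form, comparisons of NONO and H3K27ac between NC and knockdown depend on the width filter. The lists do not show signal below the authors' threshold, so a gene with no region has no listed region, not no protein or mark.

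Taking only regions at least 2 times the narrowest width left 1 NONO NC region (649 bp), 9 H3K27ac NC regions (5666 bp) and 14 in H3K27ac PKM2-KD. It left 0 regions and 0 bp in NONO-KD, H3T11ph NC and H3T11ph PKM2-KD. Genes with fewer and more regions after knockdown were then 1 and 0 in the NONO pair, 0 and 0 in the H3T11ph pair, and 1 and 5 in the H3K27ac pair, and 77.8% of H3K27ac NC regions were overlapped in PKM2-KD. With a −log10 q of at least 5, H3K27ac NC kept 12 regions (5309 bp) and start regions at 4 genes. Fewer and more H3K27ac regions were then seen at 1 and 5 genes, and 66.7% of NC regions were overlapped. With lists of equal length, NONO NC had 1 region (269 bp) and H3K27ac NC 14 (5533 bp). Fewer and more became 1 and 2 for NONO, and 0 and 6 for H3K27ac. Without the 5 kb flank, NONO NC had 2 regions (918 bp), NONO-KD 1 (111 bp), H3T11ph NC 1 (123 bp), H3T11ph PKM2-KD 0 (0 bp), H3K27ac NC 28 (4624 bp) and H3K27ac PKM2-KD 20 (5573 bp). With a flank of 10 kb, NONO-KD had 5 regions (618 bp) and H3T11ph NC 9 (1159 bp). Ranked by height, 2 of 4 genes kept the same highest NONO NC region. The cause of these changes was not tested beyond what each setting removes.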

Other observations

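PSMB8, PSMB9 and the TAP genes lie together, and values are shared between their windows. The NONO NC region in PSMB8 counts for TAP1 and TAP2, and the H3K27ac region at the PSMB8 start (613 bp in NC, 907 bp in PKM2-KD) lies in the TAP1 window. H3K27ac at the start of IRF1 covered 768 bp in NC and 1396 bp in PKM2-KD, and that of JAK2 1182 bp and 1090 bp. The H3T11ph region at JAK2, 103 bp with a fold of 30.6, was listed in PKM2-KD and not in NC, as at IRF1. These genes were picked out after their values were seen, and the differences were not tested.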
